A study of Homo sapiens with 15 samples.

Results

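The genes described here are 35 members of 2 linked programmes, the glycolytic pathway with its transporters and the response to low oxygen. They were chosen by name, with earlier results of these data known. Their Ensembl identifiers were matched to gene symbols in a table of counts for 57820 genes. All 35 were present and all 35 passed the filter on low counts, which 28793 genes passed. The cells were A673, an Ewing sarcoma line driven by the fusion oncoprotein EWS/FLI, in a knockdown/rescue system in which an shRNA was delivered on day 1, a retroviral cDNA on day 5, and RNA was taken on day 16 after selection in puromycin at 2 µg/mL and hygromycin at 400 µg/mL. There were 5 conditions with 3 libraries each. In iLuc the shRNA was directed against luciferase and the cDNA vector was empty, so endogenous EWS/FLI (endo-EF) was kept. In iEF the shRNA was directed against EWS/FLI and the vector was empty. In WT-EF, del22 and DAF the same EWS/FLI shRNA was followed by a 3X-FLAG-tagged cDNA, which encoded wildtype EWS/FLI, the form without the EWS domain (Δ22), or the form with tyrosine-to-alanine changes in the first degenerate repeats of that domain. All conditions come from 1 cell line under double drug selection. The labels give each library a replicate number, and the study describes a replicate as a knockdown/rescue set of its own. The fit takes out the offset of each set, so p-values measure how differences between conditions vary from set to set.

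Glycolysis converts glucose to pyruvate, and lactate dehydrogenase and the monocarboxylate transporters then turn pyruvate into lactate and pass it across the plasma membrane. Hypoxia-inducible factors are pairs of an oxygen-labile alpha subunit (HIF1A or EPAS1) and a stable partner, ARNT, and prolyl hydroxylases such as EGLN3 mark the alpha subunit for destruction when oxygen is present. Many glycolysis genes carry binding sites for these factors near their start, so the 2 programmes often move together. The measurements here are of RNA, and HIF alpha protein, oxygen and lactate were not measured in these files.

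The DNA letters bound by the HIF pair are ACGTG or GCGTG. To show how the members carry them, the 250 bases before the transcription start are printed for 4 genes, 5′ to 3′ on the strand of the gene, from RefSeq on GRCh38.p14, with every ACGTG and GCGTG on either strand in capitals. LDHA and ALDOC held the most ACGTG matches among the glycolysis genes, BNIP3 held the most GCGTG matches, and CA12 is shown because it differed from iEF in all 4 other conditions.
LDHA (chr11:18394313-18394562, plus strand): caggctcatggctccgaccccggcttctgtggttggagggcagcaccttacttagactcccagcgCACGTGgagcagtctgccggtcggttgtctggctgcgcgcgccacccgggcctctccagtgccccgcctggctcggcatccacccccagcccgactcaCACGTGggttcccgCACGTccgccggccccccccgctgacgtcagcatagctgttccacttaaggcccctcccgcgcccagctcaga
ALDOC (chr17:28576896-28577145, minus strand): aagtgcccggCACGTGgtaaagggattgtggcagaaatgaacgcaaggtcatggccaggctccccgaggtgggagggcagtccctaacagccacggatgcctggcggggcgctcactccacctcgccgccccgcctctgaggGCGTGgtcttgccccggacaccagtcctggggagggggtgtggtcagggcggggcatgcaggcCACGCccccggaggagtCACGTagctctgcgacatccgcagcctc
BNIP3 (chr10:131981924-131982173, minus strand): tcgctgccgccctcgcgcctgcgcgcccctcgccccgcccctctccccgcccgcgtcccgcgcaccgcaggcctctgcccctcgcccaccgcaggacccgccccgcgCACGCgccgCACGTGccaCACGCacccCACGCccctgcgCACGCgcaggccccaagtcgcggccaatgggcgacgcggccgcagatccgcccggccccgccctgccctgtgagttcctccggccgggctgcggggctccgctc
CA12 (chr15:63381847-63382096, minus strand): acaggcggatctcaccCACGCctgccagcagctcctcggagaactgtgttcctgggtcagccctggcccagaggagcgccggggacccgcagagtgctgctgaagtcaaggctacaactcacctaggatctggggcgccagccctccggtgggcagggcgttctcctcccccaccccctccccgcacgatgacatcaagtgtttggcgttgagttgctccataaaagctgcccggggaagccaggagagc

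A window was given for 31 of the 35 members, all but SLC2A3, SLC16A1, VEGFA and NDRG1. ACGTG was found in 12 of the 31, against 18.7% of 27305 promoter windows of the same length, and GCGTG in 13 of the 31, against 31.9%. LDHA held 5 ACGTG matches, since CACGTG reads the same on both strands and counts on each. Letters typical of EWS/FLI sites were also searched on both strands. A pair of GGAA units, GGAAGGAA, was in 2.99% of all windows and in 0 of the 31, and CCGGAA, the core of ETS factors such as FLI, was in 14.8% of all windows and in 5 of the 31. A match is only a description of the letters in this window.

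Total counts per library ran from 28659475 to 41859880, and the members took 1.01% to 1.41% of them. Levels below are CPM, the counts scaled to a common library size TMM normalization, and per-library values are given in the order of replicates 1, 2 and 3. FLI1, whose reads include endo-EF and any cDNA, was at 14.6 ± 1.44 CPM in iEF and 49.4 ± 2.62 in iLuc (SD, n = 3; log2 fold change 1.77, edgeR quasi-likelihood adjusted p = 7.93e-09). It was at 17.6 ± 1.39 in WT-EF, 31.2 ± 6.08 in del22 and 24.3 ± 2.64 in DAF, so the conditions with a cDNA did not have equal FLI1 counts, and the part of this in the results was not tested. The study directs its EWS/FLI shRNA at the 3′UTR, and a cDNA without that UTR would give no reads there. FLI1 counts of the endogenous and the cDNA forms may thus not be on a common scale. Of 5 Ewing markers, FLI1, NKX2-2, NR0B1 and STEAP1 were higher in iLuc than in iEF, whereas CD99 had at most 3 counts in any library. CD99 lies in the region that the X and Y chromosomes share, where a read can align to both, so its count does not show whether the gene was expressed. Summed markers of leukocytes, epithelium, endothelium and hepatocytes (5 of 6 matched to a symbol) lay between 0.44 and 1.88 CPM, with CD3E at 0 counts in 13 libraries and ALB in 6. The epithelial marker EPCAM was at 0.823 CPM in iLuc and 0.12 in iEF.

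With endo-EF present, 16 of the 35 members fell and 6 rose relative to iEF, and with WT-EF 23 fell and 2 rose. Over all genes tested, 22.1% were lower and 19.5% higher in iLuc, and 17.0% lower and 12.9% higher in WT-EF (adjusted p under 0.05, Benjamini-Hochberg, edgeR). Of the 28793 genes tested, 13178 averaged at least 50 counts, as did all members but CA9 and ANKRD37. The shares of all genes are thus not matched to the members for level, which affects how readily a change is called. The members' median log2 fold change was -0.23 in iLuc and -0.61 in WT-EF, beside 0.04 and -0.01 for all genes. A change over 2-fold was seen for 9 members that fell and 3 that rose in iLuc, against 13.7% and 10.5% of all genes. In WT-EF, 9 members fell over 2-fold, against 8.67% of all genes, and 0 rose over 2-fold, against 6.39%. That count of 0 was the same at an unadjusted p under 0.05 and with DESeq2. In del22, 1 member rose and 1 fell, against 0.472% and 0.830% of all genes. In DAF, 1 rose and 6 fell, against 5.00% and 6.19%. Each of these comparisons uses the same 3 iEF libraries, so they are not independent of each other, and the values of each are given side by side. In bulk RNA, a lower level in every cell and fewer cells with the gene cannot be told apart.

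**Figure D1:**
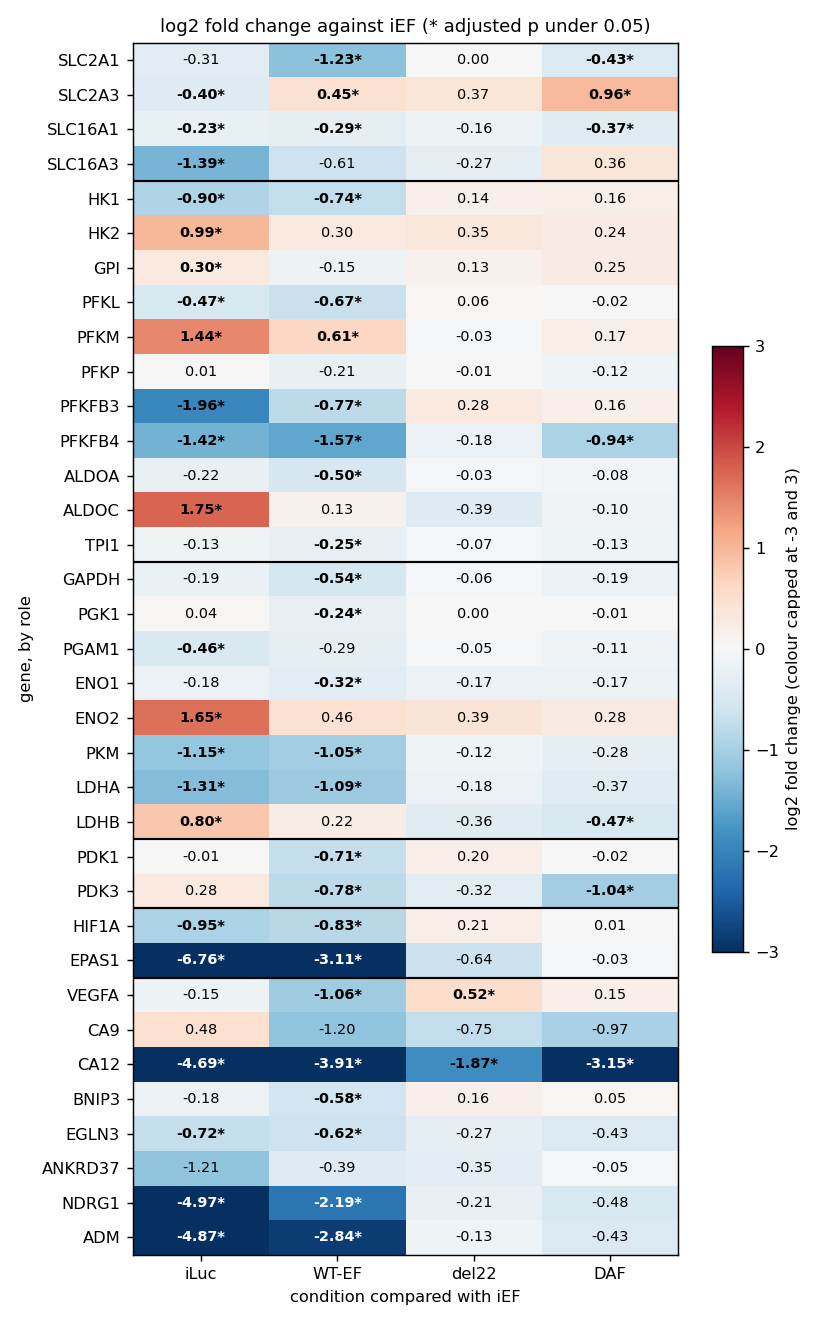
Heat map of the log2 fold change of the 35 genes (rows, in blocks by role) in iLuc, WT-EF, del22 and DAF, each against iEF. Blue is lower and red higher than in iEF, and an asterisk marks an adjusted p under 0.05. The del22 column holds 2 asterisks and the DAF column 7, and EPAS1, CA12, NDRG1 and ADM have the lowest values in the iLuc column.

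Both HIF alpha subunits fell in iLuc and in WT-EF. EPAS1 (chr2:46520806-46613836, plus strand, GRCh37, as for all gene positions below) encodes HIF-2 alpha and was at 13.98, 25.8 and 30.6 CPM in the iEF libraries. In the iLuc libraries it was at 0.244, 0.253 and 0.119 CPM, which rest on 8, 9 and 4 counts. In the WT-EF libraries it was at 2.71, 3.33 and 1.41 CPM. The 3 sets did not overlap, with WT-EF in between. EPAS1 was fitted as 108-fold lower in iLuc than in iEF (log2 fold change -6.76, SE 0.53, adjusted p = 1.26e-07) and 8.62-fold lower in WT-EF (-3.11, SE 0.39, adjusted p = 2.69e-05). In del22 it was at 10.4, 13.6 and 20.9 CPM and in DAF at 12.7, 16.2 and 43.6 CPM, both sets overlapping iEF. In the counts adjusted by the authors with ComBat, the log2 fold change in iLuc was smaller, at -4.03 for EPAS1.

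HIF1A (chr14:62162231-62214977, plus strand) encodes HIF-1 alpha, and its RNA moved far less. It was at 769, 696 and 760 CPM in iEF, at 395, 369 and 383 in iLuc, and at 377, 377 and 512 in WT-EF. Every iLuc and WT-EF library was below every iEF library, with log2 fold changes of -0.95 (SE 0.11, adjusted p = 5.62e-06) and -0.83 (SE 0.11, adjusted p = 4.33e-05). The del22 and DAF values, 871 ± 201 and 755 ± 135 CPM (SD, n = 3), overlapped iEF. Per kb of the canonical transcript, HIF1A was at 188 CPM per kb in iEF and EPAS1 at 4.55. In iLuc these levels were 96.8 and 0.0399. In del22 and in DAF, edgeR called 0 of the 2 subunits, as did DESeq2, and 0 had an unadjusted p under 0.05.

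Of the 8 hypoxia-response targets, 4 fell in iLuc (CA12, NDRG1, ADM and EGLN3) and 6 in WT-EF (the same 4 with VEGFA and BNIP3), where 22.1% and 17.0% of all genes were lower. NDRG1 (chr8:134249418-134314265, minus strand), a stress-responsive gene linked to differentiation, was at 144, 125 and 133 CPM in iEF and at 4.55, 4.07 and 4.24 in iLuc. In the WT-EF libraries it was at 51.1, 33.5 and 9.77 CPM, a wide spread that lay wholly between the other sets. The log2 fold changes were -4.97 (SE 0.38, adjusted p = 1.07e-07) and -2.19 (SE 0.33, adjusted p = 0.000149), and the first was -3.39 in the ComBat-adjusted counts. In del22 and DAF it was at 117 ± 17.5 and 95.9 ± 7.55 CPM, and neither difference from iEF passed the test.

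ADM (chr11:10326620-10328944, plus strand) encodes adrenomedullin, a vasodilating peptide. Its values were 136, 143 and 125 CPM in iEF, 4.71, 2.95 and 6.45 in iLuc, and 28.2, 21.4 and 8.15 in WT-EF. As for NDRG1, WT-EF lay between iEF and iLuc without overlap and the library of WT-EF replicate 3 was the lowest of its condition. The log2 fold change was -4.87 in iLuc (SE 0.38, adjusted p = 1.31e-07) and -2.84 in WT-EF (SE 0.34, adjusted p = 1.86e-05), and that in iLuc was -3.36 in the ComBat-adjusted counts. The del22 and DAF means, 127 ± 31.5 and 103 ± 27.4 CPM, were within 0.43 of iEF on the log2 scale and did not pass the test.

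CA12 (chr15:63613577-63674045, minus strand), a membrane carbonic anhydrase that handles the acid of glycolytic cells, was the member that fell in all 4 comparisons with iEF. It was at 39.8, 50.3 and 60.7 CPM in iEF. In iLuc it was at 2.35, 1.57 and 1.94 CPM, and in WT-EF at 4.98, 2.91 and 2.10. In del22 it was at 10.4, 11.2 and 20.3 CPM, and in DAF at 5.83, 4.88 and 6.37. Every library of the other conditions was thus below the lowest iEF library, and every DAF library was below the lowest del22 library. The log2 fold changes were -4.69 in iLuc (SE 0.32, adjusted p = 3.53e-08), -3.91 in WT-EF (SE 0.30, adjusted p = 4.33e-07), -3.15 in DAF (SE 0.29, adjusted p = 2.03e-05) and -1.87 in del22 (SE 0.27, adjusted p = 0.0052). The del22 call was lost only when all replicate 2 libraries were left out (log2 fold change -1.72, adjusted p = 0.288). In the ComBat-adjusted counts the values were -3.81 in iLuc and -3.32 in WT-EF.

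VEGFA (chr6:43737921-43754224, plus strand), the main angiogenic growth factor, followed another order. It was at 143, 137 and 138 CPM in iEF and at 139, 102 and 140 in iLuc, which overlapped (log2 fold change -0.15, adjusted p = 0.28). In WT-EF it was at 62.4, 64.6 and 74.2 CPM, below every other library (-1.06, SE 0.10, adjusted p = 3.07e-06). In del22 it was at 196, 178 and 229 CPM, above every iEF library (0.52, SE 0.10, adjusted p = 0.0222), and in DAF it was at 147, 133 and 189 CPM and did not pass the test. The rise in del22 was lost without iEF replicate 1 or 3, without del22 replicate 2 or 3, and without all replicate 1 or all replicate 2 libraries, with log2 fold changes from 0.42 to 0.59 and adjusted p from 0.0792 to 0.242.

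Of the remaining targets, BNIP3, a mitophagy receptor, was at 66.6 ± 0.679 CPM in iEF, 58.7 ± 13.3 in iLuc and 44.7 ± 4.21 in WT-EF, and fell in WT-EF (log2 fold change -0.58, adjusted p = 0.00862). Reads at its 42 annotated pseudogenes came to between 1.8% and 4.2% of the BNIP3 count, and how reads were split between them is not known. EGLN3, the HIF prolyl hydroxylase, was scarce at 2.38 CPM in iEF and fell to 1.45 in iLuc (-0.72, adjusted p = 0.0111) and to 1.57 in WT-EF (-0.62, adjusted p = 0.0337). Its pseudogene EGLN3P1 took up to 9.3% as many reads. CA9, the tumour-associated carbonic anhydrase, had at most 16 counts in any library and 0 in WT-EF replicate 1, which allows up to 3, so a difference was not detectable at this depth. ANKRD37, an ankyrin-repeat protein, averaged 14 counts and was at 0.526 ± 0.186 CPM in iEF and 0.225 ± 0.0915 in iLuc (log2 fold change -1.21, adjusted p = 0.0578). CA9 overlaps ARHGEF39 and ANKRD37 overlaps UFSP2 on the opposite strand, and whether the counting used strand is not given in the sources used here.

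**Figure D2:**
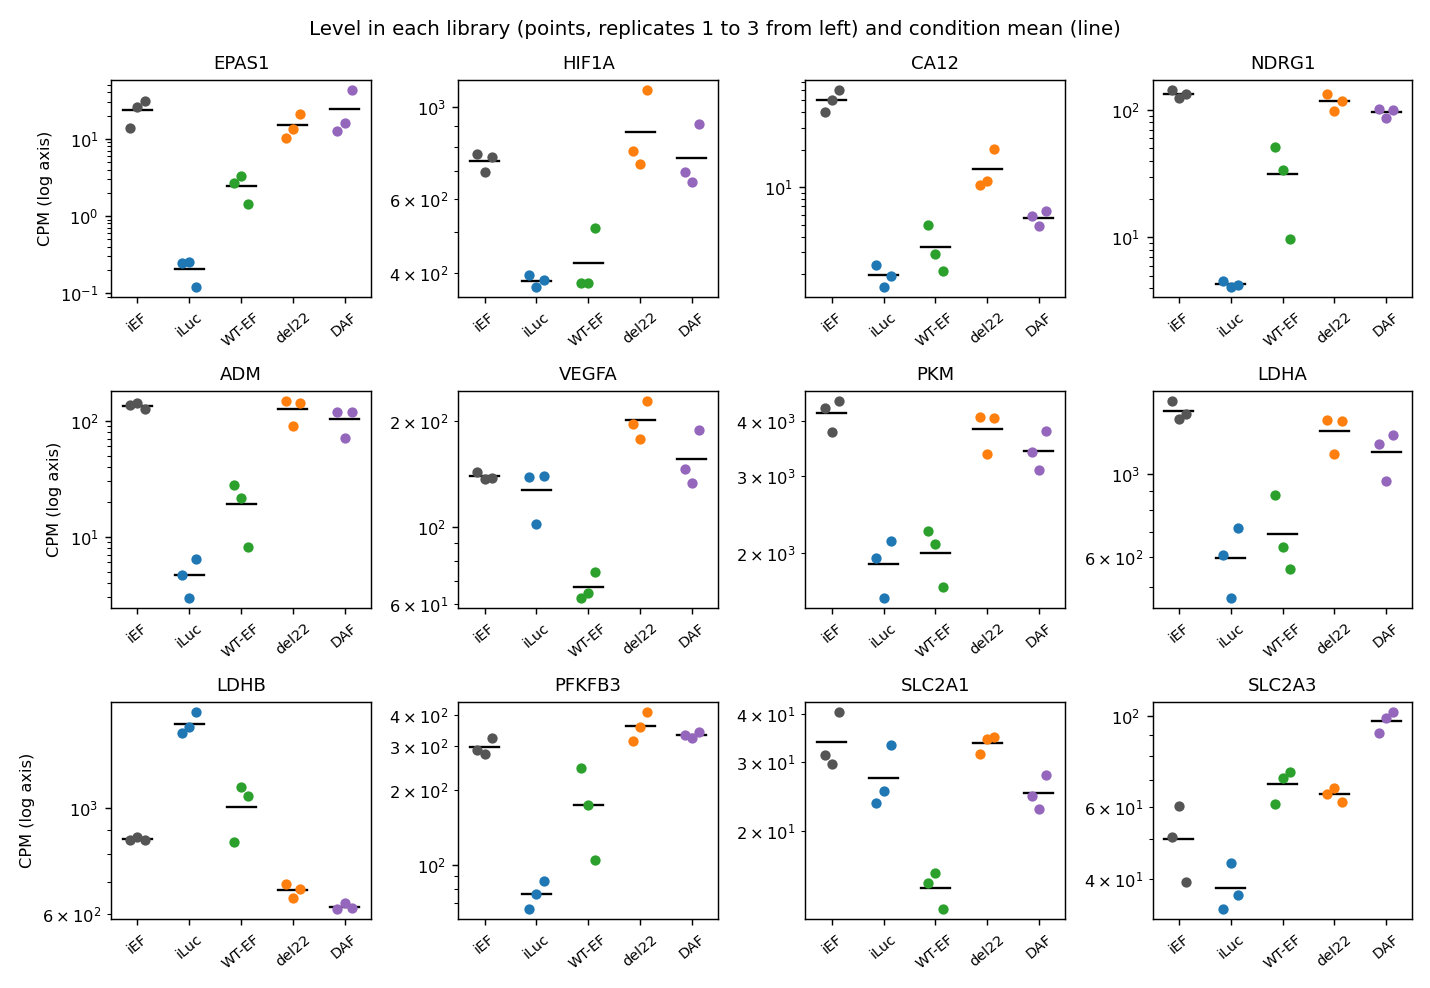
CPM on a log axis in each of the 15 libraries for 12 members, with points for replicates 1 to 3 from the left and a line at the mean of each condition. For EPAS1, NDRG1 and ADM the WT-EF points lie between iEF and iLuc, whereas for VEGFA and SLC2A1 the WT-EF points are the lowest of all 5 conditions.

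Among the 4 transporters, 3 fell in iLuc (22.1% of all genes were lower), and in WT-EF 2 fell and 1 rose (17.0% lower and 12.9% higher). SLC2A1 (chr1:43391024-43424564, minus strand), the basal glucose transporter GLUT1, was at 31.3, 29.7 and 40.5 CPM in iEF and at 23.6, 25.3 and 33.3 in iLuc, which overlapped (log2 fold change -0.31, adjusted p = 0.0753). In WT-EF it was at 14.7, 15.6 and 12.6 CPM, below all other libraries (-1.23, SE 0.13, adjusted p = 7.7e-06). In DAF it was at 24.5, 22.8 and 27.8 CPM, below every iEF library, and the test passed narrowly (-0.43, SE 0.13, adjusted p = 0.04995). The DAF call was lost in 17 of 25 alternative analyses, among them each one that left out a DAF or an iEF library (adjusted p up to 0.248). In del22 SLC2A1 was at 31.6, 34.4 and 34.9 CPM and overlapped iEF.

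SLC2A3 (chr12:8071826-8171603, minus strand), the high-affinity transporter GLUT3, went the other way in the cells with a cDNA. It was at 50.8, 60.4 and 39.5 CPM in iEF, at 61.0, 70.7 and 73.0 in WT-EF, at 64.6, 66.9 and 61.6 in del22, and at 91.1, 98.8 and 102 in DAF. The DAF libraries were the highest of all 15, with a rise of 0.96 on the log2 scale over iEF (SE 0.12, adjusted p = 0.000165). WT-EF rose by 0.45 (SE 0.12, adjusted p = 0.00935), a call lost without iEF replicate 3 (0.28, adjusted p = 0.0605) and without all replicate 3 libraries. The del22 difference of 0.37 did not pass (adjusted p = 0.155). In iLuc SLC2A3 was at 33.7, 43.9 and 36.7 CPM, overlapping iEF, and fell by 0.40 on the log2 scale (SE 0.12, adjusted p = 0.014). That call was lost without iEF replicate 1 or 2, without iLuc replicate 1, and without all replicate 1 or all replicate 2 libraries (adjusted p from 0.0687 to 0.192).

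The monocarboxylate transporters carry lactate. SLC16A1 (chr1:113454469-113500215, minus strand), or MCT1, was at 256, 277 and 284 CPM in iEF, 213, 237 and 247 in iLuc, 207, 248 and 212 in WT-EF, and 209, 203 and 220 in DAF. Each of these 3 conditions lay below iEF without overlap, by small amounts, with log2 fold changes of -0.23, -0.29 and -0.37 and adjusted p of 0.0329, 0.0131 and 0.00866. The iLuc call was lost without any iEF library, without iLuc replicate 1 or 2, or without all replicate 1 or 2 libraries (adjusted p up to 0.213). The WT-EF call was lost without iEF replicate 2, WT-EF replicate 1 or 3, or all replicate 1 or 3 libraries (up to 0.234). The DAF call was lost without DAF replicate 2 or all replicate 1 or 2 libraries (up to 0.11). In del22 it was at 230, 238 and 262 CPM, overlapping iEF. SLC16A3 (chr17:80175810-80219005, plus strand), the lactate exporter MCT4, was at 2.97, 3.31 and 4.39 CPM in iEF and at 1.04, 1.52 and 1.46 in iLuc (-1.39, SE 0.37, adjusted p = 0.00676). The WT-EF libraries were at 2.69, 2.25 and 1.62 CPM, which did not overlap iEF but did not pass the test (-0.61, adjusted p = 0.226). The replicate 3 libraries of del22 and DAF stood at 5.40 and 8.65 CPM, above the other 2 of their conditions. SLC16A3 overlaps CSNK1D on the opposite strand.

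In the upper part of glycolysis, from glucose to triose phosphate, 4 of 11 members rose and 4 fell in iLuc (19.5% and 22.1% of all genes), and 1 rose and 6 fell in WT-EF (12.9% and 17.0%). PFKFB3 (chr10:6186897-6296607, plus strand), which makes the allosteric activator of phosphofructokinase, was at 288, 278 and 322 CPM in iEF and at 66.1, 76.5 and 85.7 in iLuc. The WT-EF libraries held 244, 173 and 104 CPM, a spread that lay between the 2 sets without overlap. The log2 fold changes were -1.96 (SE 0.22, adjusted p = 4.95e-06) and -0.77 (SE 0.22, adjusted p = 0.0138), and the second call was lost without iEF replicate 3 (-0.70, adjusted p = 0.0526) and without all replicate 2 libraries (-0.82, adjusted p = 0.114). In del22 and DAF PFKFB3 was at 360 ± 48.9 and 331 ± 9.88 CPM and did not pass the test. PFKFB4 (chr3:48555117-48599448, minus strand), its relative, was at 12.3, 15.1 and 12.0 CPM in iEF, 4.25, 6.98 and 3.61 in iLuc, 4.18, 4.04 and 4.93 in WT-EF, and 6.85, 6.54 and 6.94 in DAF. PFKFB4 fell in all 3, by 1.42 (adjusted p = 2.73e-05), 1.57 (adjusted p = 2.28e-05) and 0.94 (adjusted p = 0.00485) on the log2 scale, and the DAF call was lost without all replicate 1 libraries (adjusted p = 0.0707). In del22 PFKFB4 was at 12.4, 11.5 and 10.7 CPM, overlapping iEF. It shares its strand with UCN2, which overlaps it and had 15.8% as many counts.

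The isoforms of single steps did not move as 1. PFKM (chr12:48498922-48540187, plus strand), the muscle phosphofructokinase, was at 50.6, 65.9 and 50.1 CPM in iEF, at 155, 151 and 143 in iLuc and at 71.1, 91.0 and 92.1 in WT-EF, with 3 sets that did not overlap. It rose by 1.44 (SE 0.10, adjusted p = 6.22e-08) and 0.61 (SE 0.10, adjusted p = 0.000371) on the log2 scale. Its gene overlaps SENP1, on the opposite strand, which had 59.9% as many counts. The liver form PFKL fell from 96.5 ± 6.68 CPM in iEF to 69.4 ± 0.763 in iLuc and 60.5 ± 3.98 in WT-EF (log2 fold changes -0.47 and -0.67, adjusted p = 0.00272 and 0.000267), and the platelet form PFKP passed the test in neither, at 190 ± 13.7, 192 ± 9.4 and 164 ± 14.6 CPM.

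The hexokinases, which trap glucose in the cell, split likewise. HK1 fell from 504 ± 5.54 CPM in iEF to 270 ± 20.7 in iLuc and 302 ± 42.3 in WT-EF (-0.90 and -0.74, adjusted p = 3.07e-06 and 4.43e-05), and HK2 rose from 23.2 ± 2.94 to 46.6 ± 5.84 in iLuc (0.99, adjusted p = 1.71e-05), with 29 ± 5.34 in WT-EF. Of the aldolases, ALDOA was at 333 ± 38.5 CPM in iEF and fell in WT-EF (235 ± 27.7, -0.50, adjusted p = 0.00203). ALDOC (chr17:26900133-26903966, minus strand), the brain form, was at 1.71, 3.95 and 1.43 CPM in iEF and at 6.21, 11.1 and 6.24 in iLuc, without overlap (1.75, SE 0.41, adjusted p = 0.00277). Its WT-EF values of 1.25, 2.51 and 4.55 CPM spanned those of iEF. GPI, the phosphoglucose isomerase, rose by 0.30 in iLuc (adjusted p = 0.0122), and TPI1, the triose isomerase, fell by 0.25 in WT-EF (adjusted p = 0.0229).

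In the lower part, from glyceraldehyde phosphate to lactate, 2 of 8 members rose and 3 fell in iLuc (19.5% and 22.1% of all genes), and 5 fell in WT-EF (17.0%). PKM (chr15:72491370-72524160, minus strand), pyruvate kinase, stood at 1810 ± 152 CPM per kb of canonical transcript in iEF. That was above ENO1 (1490 ± 136), whereas per kb of all annotated exons ENO1 was higher (510 against 487). Its levels were 4280, 3779 and 4457 CPM in iEF, 1944, 1571 and 2126 in iLuc, and 2237, 2091 and 1667 in WT-EF. Every iLuc and WT-EF library was far below iEF, with log2 fold changes of -1.15 (SE 0.12, adjusted p = 1.86e-06) and -1.05 (SE 0.12, adjusted p = 1.03e-05), and the 2 sets overlapped each other. In del22 and DAF PKM was at 3842 ± 407 and 3426 ± 353 CPM and did not pass the test. The counts are per gene, so the PKM1 and PKM2 splice forms are not told apart.

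LDHA (chr11:18416107-18429972, plus strand), which favours the making of lactate and whose promoter is printed above, was at 1565, 1397 and 1443 CPM in iEF. It was at 609, 466 and 717 CPM in iLuc and at 880, 637 and 558 in WT-EF, both below iEF without overlap (-1.31, SE 0.14, adjusted p = 2.22e-06, and -1.09, SE 0.14, adjusted p = 2.65e-05). In del22 it was at 1300 ± 145 CPM and in DAF at 1145 ± 164, each below every iEF library but not past the test (adjusted p = 0.635 and 0.102). LDHB (chr12:21788276-21910791, minus strand), the heart form, went the other way in iLuc. It was at 855, 868 and 857 CPM in iEF, at 1435, 1476 and 1585 in iLuc (0.80, SE 0.09, adjusted p = 3.97e-06), and at 849, 1104 and 1060 in WT-EF, which overlapped iEF (0.22, adjusted p = 0.0777). In DAF it was at 613, 632 and 617 CPM, below every iEF library (-0.47, SE 0.09, adjusted p = 0.00338), and in del22 at 694, 647 and 675 (-0.36, adjusted p = 0.0676).

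Of the enolases, ENO2 (chr12:7022909-7032861, plus strand), the neuronal form, was at 34.5, 31.3 and 24.1 CPM in iEF and at 95.7, 94.1 and 92.1 in iLuc (1.65, SE 0.18, adjusted p = 3.41e-06). The WT-EF values were 41.1, 28.2 and 55.1 CPM, overlapping iEF. The ubiquitous ENO1, at 1490 ± 136 CPM per kb of canonical transcript in iEF against 13.1 ± 2.31 for ENO2, was lower by 0.32 on the log2 scale in WT-EF (adjusted p = 0.0307). GAPDH and PGK1, the enzymes of the first steps of the lower part, also fell in WT-EF (-0.54, adjusted p = 0.000356, and -0.24, adjusted p = 0.0399) and did not pass in iLuc. PGAM1 fell in iLuc (-0.46, adjusted p = 0.00333). Among genes with pseudogenes, GAPDH has 64 annotated ones, which took 0.335% to 0.752% as many reads. PGK1 overlaps ATP7A on the same strand.

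Since ratios of 2 genes within a library do not depend on scaling, isoform pairs were also compared that way. The log2 ratio of LDHA to LDHB counts was 0.87, 0.69 and 0.75 in iEF and -1.24, -1.66 and -1.14 in iLuc, so the gene with more reads switched from LDHA to LDHB. In WT-EF it was 0.05, -0.79 and -0.92, between the 2 sets, and in del22 and DAF the mean was 0.95 ± 0.121 and 0.87 ± 0.238. HK1 over HK2 was 4.45 ± 0.176 in iEF and 2.54 ± 0.196 in iLuc, with 3.39 ± 0.463 in WT-EF. PFKM over PFKL was -0.81 ± 0.199 in iEF and 1.11 ± 0.05 in iLuc, with 0.48 ± 0.132 in WT-EF. For these 3 pairs WT-EF lay between iEF and iLuc without overlap, while the del22 libraries overlapped iEF in each. The same held for PFKM over PFKP and HIF1A over EPAS1. For ENO1 over ENO2 and ALDOA over ALDOC, however, WT-EF overlapped iEF. ENO1 over ENO2 was also lower in del22 (5.92 ± 0.132) than in iEF (6.48 ± 0.358), without overlap. SLC2A1 over SLC2A3 overlapped between iEF and iLuc (-0.56 ± 0.543 and -0.48 ± 0.328) and was lower in WT-EF (-2.26 ± 0.251) and DAF (-1.96 ± 0.131). With 3 libraries against 3, the two-sided exact permutation test cannot go below 0.1, which each of the non-overlapping pairs reached, and the adjusted value over 56 such tests was 0.2.

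**Figure D3:**
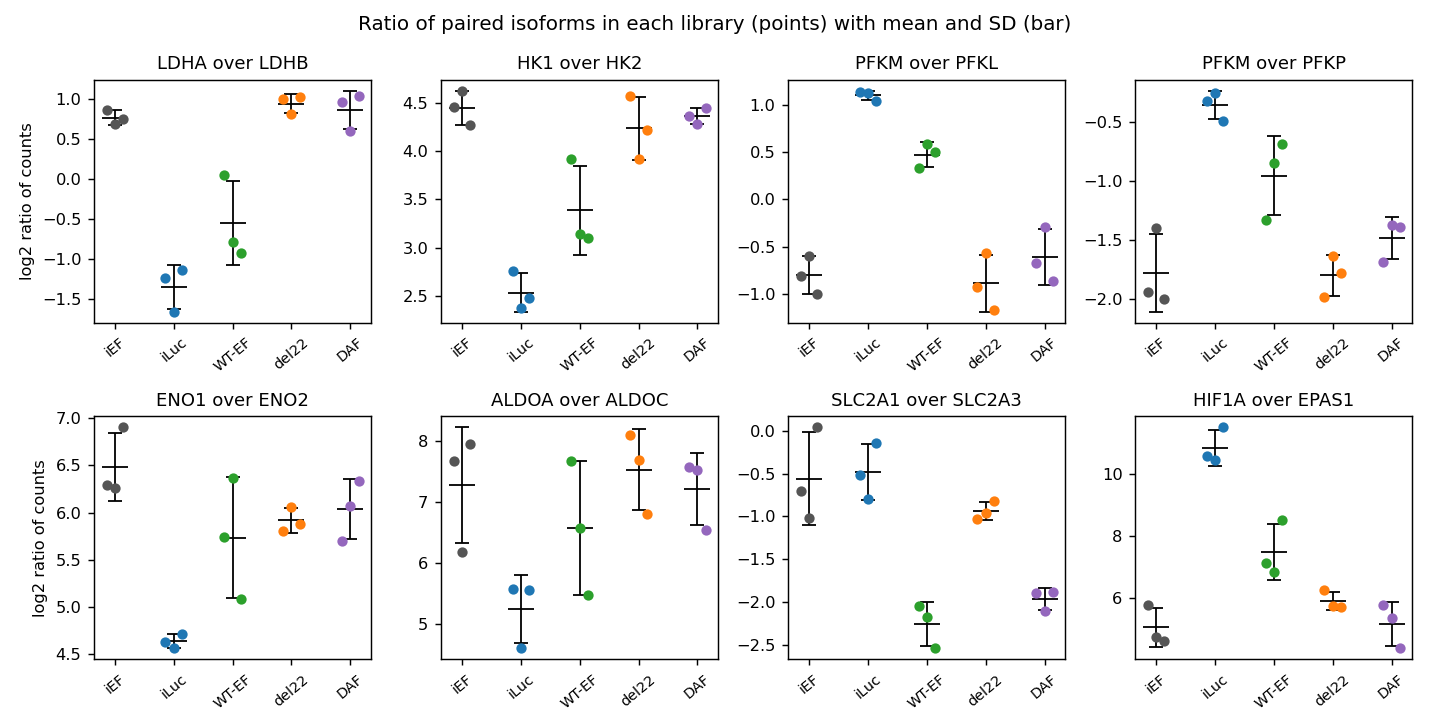
Log2 ratio of the counts of 8 gene pairs in each library, with the mean and SD of the 3 libraries of each condition. In the panels of LDHA over LDHB, HK1 over HK2 and PFKM over PFKL, iLuc stands apart from iEF, del22 and DAF, and WT-EF lies between.

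A sum was taken over the 19 members of the upper and lower parts, hexokinase to lactate dehydrogenase, with the regulators PFKFB3 and PFKFB4 included. It was 13400 ± 841 CPM in iEF, 9980 ± 684 in iLuc, 9029 ± 784 in WT-EF, 12460 ± 662 in del22 and 11670 ± 943 in DAF (SD, n = 3). The iEF libraries ran from 12450 to 14050 CPM and the iLuc and WT-EF libraries from 8124 to 10620, without overlap. Without PKM, the sums ran from 8669 to 9593 CPM in iEF, from 7689 to 8492 in iLuc and from 6457 to 7404 in WT-EF, again without overlap with iEF. The gap between iEF and iLuc in these last sums depends on PFKFB3, at 278 CPM in iEF replicate 2 and 85.7 in iLuc replicate 3. Those are the libraries of the lowest iEF sum and the highest iLuc sum.

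The pyruvate dehydrogenase kinases switch off pyruvate dehydrogenase, and so the conversion of pyruvate to acetyl-CoA in the mitochondria. PDK1 was at 25.8 ± 1.03 CPM in iEF, 25.7 ± 5.44 in iLuc and 15.9 ± 2.04 in WT-EF, and of the 4 comparisons with iEF passed the test in that of WT-EF (-0.71, adjusted p = 0.00212). PDK3 (chrX:24483361-24568583, plus strand) was at 7.88, 11.03 and 9.66 CPM in iEF and at 10.6, 11.6 and 12.4 in iLuc, which overlapped. In WT-EF it was at 4.79, 4.89 and 6.92 CPM, and in DAF at 3.94, 4.85 and 5.13. Both were below every iEF library (-0.78, SE 0.14, adjusted p = 0.000535, and -1.04, SE 0.14, adjusted p = 0.000329). In del22 it was at 6.74, 8.06 and 8.004 CPM, overlapping iEF.

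WT-EF was compared with iLuc directly, which asks how far the rescue with the cDNA came to the level of cells that kept endo-EF. Of the 35 members, 12 were lower and 5 higher in WT-EF, against 9.03% and 10.7% of all genes, with a median of -0.15 beside -0.01 for all genes. The 5 higher were EPAS1 (12.6-fold), NDRG1 (6.90-fold), ADM (4.10-fold), PFKFB3 (2.27-fold) and SLC2A3 (1.80-fold), all of which were lower in iLuc than in iEF. SLC2A3 differed from the others, as in WT-EF it was also higher than in iEF (0.45 on the log2 scale, adjusted p = 0.00935). That call was lost without iEF replicate 3. EPAS1 differed by 3.65 on the log2 scale (SE 0.57, adjusted p = 0.000474), and by 4.24 without WT-EF replicate 3. In the ComBat-adjusted counts the differences were smaller but still passed the test, at 1.42 for EPAS1, 1.60 for NDRG1 and 1.04 for ADM. The call for PFKFB3 was lost without all replicate 1 or all replicate 2 libraries (log2 fold change 0.78 and 1.19, adjusted p = 0.0539 and 0.0621), and so was that for ADM (1.73 and 1.61, adjusted p = 0.063 and 0.0528), which was 2.78 without all replicate 3 libraries.

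Those lower in WT-EF than in iLuc were of 2 kinds. ALDOC, ENO2, PFKM, HK2, LDHB and GPI had risen in iLuc, and in WT-EF they were lower by 0.44 (GPI, adjusted p = 0.0023) to 1.62 (ALDOC, adjusted p = 0.0114) on the log2 scale. The ALDOC call was lost without iLuc replicate 1 or 2 or WT-EF replicate 1 or 2 (adjusted p from 0.0517 to 0.0712), and without all replicate 1 or all replicate 2 libraries (0.217 and 0.133). SLC2A1, VEGFA, PDK1, PDK3, GAPDH and PGK1 had not passed the test in iLuc, and were lower in WT-EF by 0.29 (PGK1, adjusted p = 0.0264) to 1.07 (PDK3, adjusted p = 0.000119). VEGFA was lower by 0.91 (SE 0.10, adjusted p = 4.2e-05) and SLC2A1 by 0.92 (SE 0.13, adjusted p = 0.000273). Of the 18 members that did not pass, HIF1A, PKM, LDHA, HK1 and PFKFB4 had log2 differences from -0.15 to 0.22. Larger differences that did not pass were those of CA12 (0.78, adjusted p = 0.0976) and SLC16A3 (0.77, adjusted p = 0.177). These 2 were called higher in WT-EF in 4 and 3 of the 25 alternatives. PKM and LDHA were called higher in WT-EF without WT-EF replicate 3 or all replicate 3 libraries, and LDHA also without iLuc replicate 3. The lowest adjusted p was 0.00921 for PKM and 0.000375 for LDHA. FLI1 reads were 49.4 CPM in iLuc and 17.6 in WT-EF, values that may not be on a common scale. In addition, iLuc did not carry the EWS/FLI shRNA or a cDNA, so these differences between the conditions cannot be told apart from that of the protein form.

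**Figure D4:**
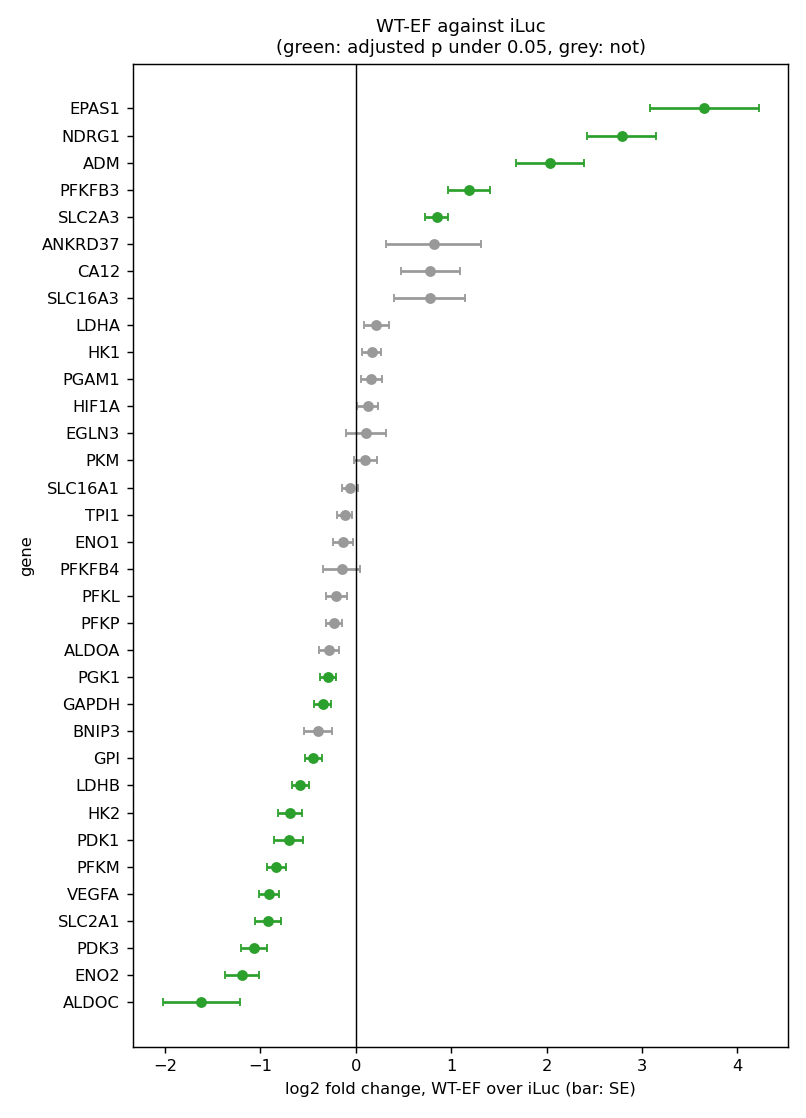
Log2 fold change of WT-EF over iLuc with its standard error for 34 members, with CA9 left out for its low counts, sorted by value. Green points have an adjusted p under 0.05. EPAS1, NDRG1 and ADM are at the top, above 2, and ALDOC, ENO2 and PDK3 at the bottom, below -1.

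The cDNA forms were then set against each other, WT-EF against DAF and DAF against del22. WT-EF and del22 were not compared directly, so what the whole EWS domain contributes was not tested. FLI1 reads also differed, at 17.6 CPM in WT-EF, 24.3 in DAF and 31.2 in del22. The change in the protein thus cannot be told apart from a difference in its level. Between WT-EF and DAF, 18 members were lower and 2 (PFKM and LDHB) higher in WT-EF, against 16.1% and 12.4% of all genes, with a median of -0.42 beside -0.01. EPAS1 was 8.46-fold lower in WT-EF (log2 fold change -3.08, SE 0.39, adjusted p = 4.94e-05, and -2.23 without all replicate 3 libraries), ADM 5.32-fold (adjusted p = 0.000104), NDRG1 3.26-fold (adjusted p = 0.00121) and VEGFA 2.31-fold (adjusted p = 3.08e-06). HIF1A (-0.84), HK1 (-0.90), PKM (-0.77), LDHA (-0.73), PFKFB3 (-0.94) and PFKFB4 (-0.62) also passed, the last not without WT-EF replicate 1 or 2 or DAF replicate 1 or 3 (adjusted p up to 0.126), and PFKFB3 not without all replicate 2 libraries (adjusted p = 0.0722). CA12 was lower by 0.76 and did not pass (adjusted p = 0.0667), nor did PDK3, at 5.53 ± 1.2 CPM in WT-EF and 4.64 ± 0.625 in DAF.

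DAF and del22 differed in 3 members. SLC2A3 was higher in DAF by 0.60 on the log2 scale (adjusted p = 0.0198), PDK3 lower by 0.72 (adjusted p = 0.02) and CA12 lower by 1.28 (adjusted p = 0.0374), against 0.948% of all genes higher and 0.379% lower. All 3 calls were lost when any of several single libraries was left out. For SLC2A3 these were DAF replicate 1 or 3 and any del22 library (adjusted p up to 0.155), for PDK3 any DAF or del22 library (up to 0.128), and for CA12 any DAF library, del22 replicate 2 or 3, or WT-EF replicate 2 (up to 0.227, with a log2 fold change of -0.93 without del22 replicate 3). Without all replicate 2 libraries the adjusted p was 0.224 for SLC2A3 and 0.421 for CA12, and without all replicate 1 libraries it was 0.355 for PDK3. The CA12 call was also lost in the ComBat-adjusted counts.

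Genes of neighbouring pathways were counted in lists of which 95 genes were tested, and those named are the largest called changes in iLuc among genes averaging at least 50 counts. The shares to read the counts against are those of all genes, 22.1% lower and 19.5% higher in iLuc, 17.0% and 12.9% in WT-EF, 6.19% and 5.00% in DAF, and 0.830% and 0.472% in del22. The 30 further HIF target genes were chosen with earlier results of these data known, so their counts are a description only. Of these genes, 22 were lower and 3 higher in iLuc, with a median of -1.36, and 19 were lower and 2 higher in WT-EF. In DAF 2 were lower and 6 higher, and in del22 1 was higher. The study names IGFBP3 and LOX, both in this list, as repressed EWS/FLI targets. IGFBP3, which binds insulin-like growth factors, fell from 5774 ± 1620 CPM in iEF to 29.4 ± 6.97 in iLuc (-7.60, adjusted p = 9.27e-10), with 172 ± 92.4 in WT-EF. FAM162A, a mitochondrial protein, rose from 18.4 ± 2.11 to 57.4 ± 5.33 in iLuc (1.65, adjusted p = 1.63e-08). Of 11 genes of oxygen sensing and HIF partners, 3 were lower and 2 higher in iLuc, shares near those of all genes. ARNT, the common partner, rose by 0.33 (adjusted p = 0.0214), and its relative ARNT2 fell by 3.50 on the log2 scale, from 3.97 ± 1.5 to 0.358 ± 0.247 CPM (adjusted p = 1.98e-06).

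Around pyruvate entry to the mitochondria, 5 of 13 genes were higher and 3 lower in iLuc, against the 19.5% and 22.1% of all genes. The 2 phosphatases that switch pyruvate dehydrogenase back on moved apart, with PDP1 down from 285 ± 18.5 CPM in iEF to 33.3 ± 8.68 in iLuc (-3.11, adjusted p = 2.95e-07) and PDP2 up from 9.11 ± 1.56 to 31.6 ± 0.642 (1.81, adjusted p = 2.22e-08). Among 17 other glycolysis isoforms and regulators, 4 were higher and 7 lower, with the transporters SLC16A7 (1.76, adjusted p = 0.00135) and SLC2A6 (-2.80, adjusted p = 1.16e-05) at the ends. In the citric acid cycle 6 of 17 were higher and 4 lower, the latter near the 22.1% of all genes, with the largest called changes for FH, fumarate hydratase (0.98, adjusted p = 2.36e-07), and SUCLG2, a subunit of succinyl-CoA ligase (-1.18, adjusted p = 2.2e-07). In the pentose phosphate pathway 2 of 7 were lower, also near that share, with transaldolase, TALDO1, falling by 0.87 on the log2 scale (adjusted p = 4.87e-06).

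**Figure D5:**
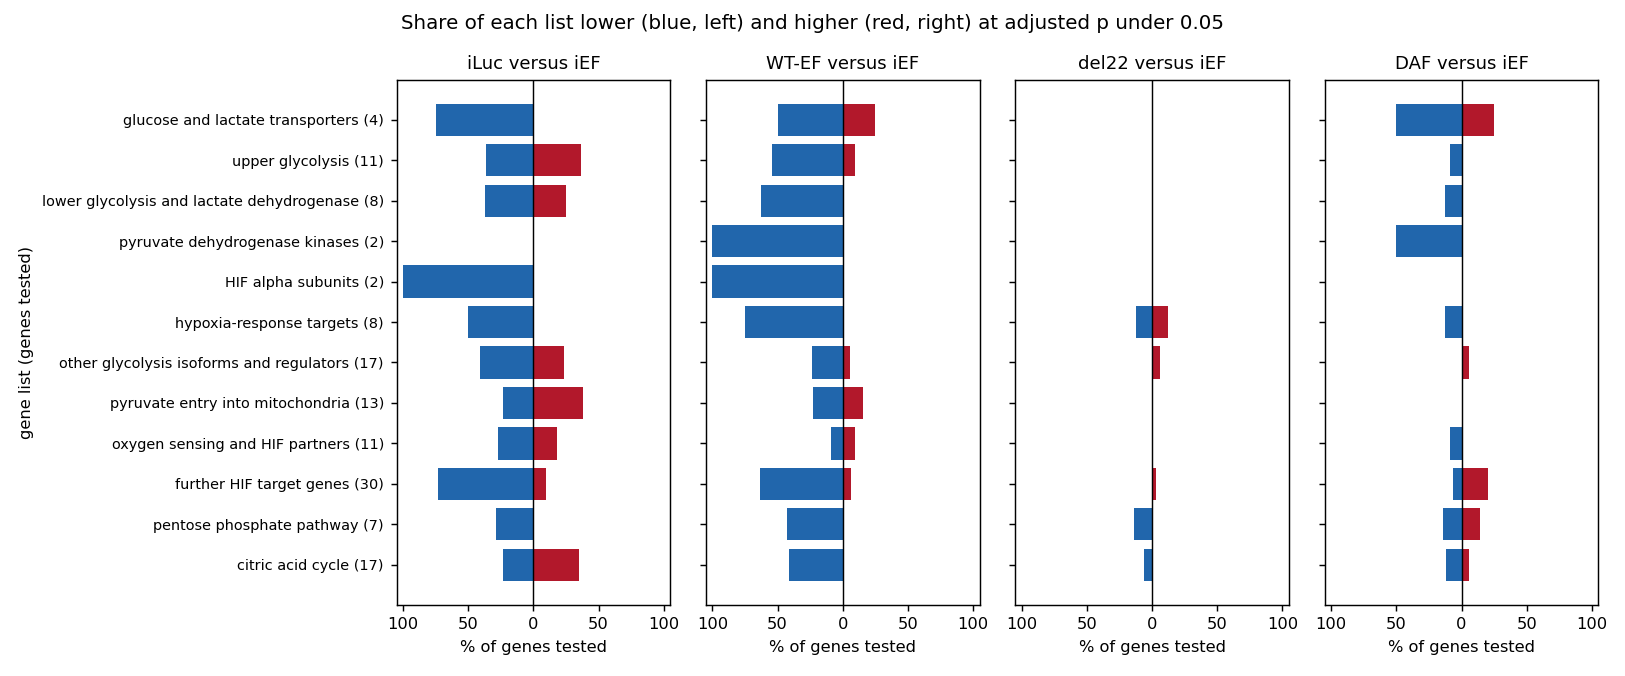
Share of the tested genes of each list called lower (blue, to the left) or higher (red, to the right) in iLuc, WT-EF, del22 and DAF against iEF, in percent of the genes tested, whose number stands beside each name. The del22 panel is nearly empty, and further HIF target genes extend farthest to the left among the lists of over 11 genes in the iLuc and WT-EF panels.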

How the data were processed

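RNA from A673 cells was sequenced as 150-bp pairs by the authors, aligned to hg19 with STAR and counted per gene with htseq-count (intersection-strict). The deposited raw counts, whole numbers without normalization, were used throughout. A deposited table of counts adjusted by the authors with ComBat for replicate set, for 27002 genes, holds expected counts, which were rounded and used in an alternative. The authors' table of fold changes and p-values was not used, nor were 3 columns of other samples. STAR is given as version 2.5.1b in the submitters' processing notes, whereas the study's methods give another version. The annotation release is not given in the sources used here.

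Genes with a mean count of at least 1 were kept (28793). In R 4.3.3, edgeR 4.0.16 (TMM, quasi-likelihood) fitted condition and replicate number, as the study adjusted by replicate set, to all 15 libraries. P-values were adjusted within each comparison over all genes (threshold 0.05). On simulated data with 200 genes changed 2-fold between iLuc and iEF (28156 genes), 156 were called, and 11 unchanged genes. The changed genes averaged at least 50 counts, and no offsets between replicate sets were simulated. Far fewer genes were changed than are called in the data. The simulation thus does not give the power or error rate of the real comparison, nor of scarce genes. Members and lists were chosen with earlier results of these data known. Members were described in full where they passed in iLuc or WT-EF with a log2 fold change beyond 1, or passed in del22 or DAF. From wider lists the largest called rise and fall in iLuc were named, at a mean count of at least 50. Symbols were found for 55538 of 57820 identifiers. Gene positions are from GRCh37, promoters from RefSeq. Replicates differed by more than counting noise (chi-square per gene 12.9 to 83.2). Alternatives were DESeq2 1.42.0, other scaling and filters, other sample sets and left-out libraries.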

Additional observations from a re-analysis of the deposited data

How the results depend on the processing

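With an added 2-fold limit the counts of called members were 3 higher and 9 lower in iLuc, 0 higher and 9 lower in WT-EF, 1 in del22, 2 in DAF, 7 for WT-EF against iLuc, 4 for WT-EF against DAF, and 1 for DAF against del22. Members higher in WT-EF than in iEF numbered 2, and 5 with DESeq2, 4 with the ComBat-adjusted counts and 5 with a mean count of at least 10. For del22 against iEF the 2 became 5 with no filter on low counts and 1 without the replicate block. For DAF against del22 the 3 became 5 with DESeq2, 5 with no filter, 0 without the replicate block and 14 with only those 2 conditions fitted. At an unadjusted p under 0.05 the replicate-blocked fit had 1 higher and 6 lower there. Shares of all genes were not taken under the alternatives or with libraries left out. With the 2-fold limit they were taken for iLuc and WT-EF against iEF alone. The counts without such a share show how calls moved with the setting, and are not a result about the members. Leaving out 1 library or 1 replicate number at a time gave 5 to 6 higher and 13 to 20 lower in iLuc, 1 to 4 higher and 16 to 24 lower in WT-EF, 0 to 3 in del22, 4 to 11 in DAF, 11 to 21 for WT-EF against iLuc, 17 to 22 for WT-EF against DAF, and 0 to 5 for DAF against del22. The lowest counts came without all replicate 1 libraries in iLuc (lower), WT-EF (lower) and DAF, without all replicate 2 in del22 and without either for WT-EF against iLuc. Without WT-EF replicate 3 the lower members in iLuc were 20 and those called in DAF 11, and without WT-EF replicate 1 the members higher in WT-EF were 4. For the 18 members described in full, 65 results were called, of which 46 were called in all 25 alternatives and 19 were lost in at least 1. Of the 61 not called, 26 were called in at least 1, and 0 of the called results changed sign. Replicate numbers were used as a block because the study adjusted by replicate set. The deviations of same-numbered libraries from their condition means correlated with a median of 0.185 over 30 pairs, and over 0.1 in 21, against -0.0842 for 60 pairs of different number. With 3 libraries a condition, genes as scarce as CA9, ANKRD37 and EGLN3 had few counts, which limits what could be detected. The cause of these differences between settings was not tested.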
